A study of Mus musculus with 24 samples.

Results

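In AML-12 cells exposed to palmitate, what *Bmal1* silencing added to *Chrebp* silencing was read from 8 of the 24 libraries of the series, namely the 4 that received *Chrebp* esiRNA alone (CHREBP) and the 4 that received *Bmal1* and *Chrebp* esiRNA together (BOTH). The libraries were chosen by their labels, with no measured value in the choice. AML-12 is an established line of mouse hepatocytes, and every esiRNA library came from cells kept in 0.25 mM palmitate, a saturated fatty acid used to model steatosis, in medium without dexamethasone and with charcoal-treated serum. An esiRNA is a pool of short interfering RNAs cut by an endoribonuclease from a long double-stranded RNA, and it acted for 24 h. CHREBP cells received 100 nM of esiRNA in all and BOTH cells 200 nM, so the added *Bmal1* esiRNA cannot be told apart from the higher total dose. Nor can it be told apart from the place of the libraries, since CHREBP was in rows A to D and BOTH in rows E to H of library column 3. Without *Chrebp* esiRNA, cells with 100 nM *Bmal1* esiRNA (BMAL1) were set against cells with 200 nM of an esiRNA to *Egfp* (CON), again 4 libraries each. There the dose ran the other way, and only CON held the *Egfp* esiRNA. CON was in rows A to D and BMAL1 in rows E to H of library column 2. The labels do not say that the 4 libraries of a group were separate cultures, so p-values measure the spread between these libraries.

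BMAL1, which the deposited table lists under the older symbol *Arntl*, is the transcription factor that pairs with CLOCK on E-box sequences and drives the circadian clock. CHREBP, listed as *Mlxipl*, is a glucose-responsive factor that binds carbohydrate response elements of glycolytic and lipogenic genes in the liver. Double-stranded RNA is itself recognized in cells by sensors such as RIG-I and MDA5, which induce interferon beta. Interferons then act through JAK kinases, STAT proteins and interferon regulatory factors on the interferon-stimulated genes, many of which carry the interferon-stimulated response element (ISRE).

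Gene counts came from BRB-seq, which reads the 3′ ends of barcoded and pooled mRNA. The 8 libraries held 6754747 to 8987732 gene counts each, and the reads not aligned were 24.9% to 26.7% of all. A 2-sided exact permutation test gave p = 0.6 for the difference in totals between the groups and p = 0.143 for the share not aligned. A count of 3 corresponded to 0.334 to 0.444 CPM (gene counts scaled to a common library total), with counting error only in view. All 7 hepatocyte markers were detected, while all 4 endothelial markers were at 0 and 4 of 7 macrophage and leukocyte markers had at most 3 counts. Of 5 stellate cell and fibroblast markers, 3 had at most 3 counts, and *Des* and *Col1a1* reached 11 and 8. Of the 4 cholangiocyte markers, *Krt19*, *Krt7* and *Sox9* were expressed and *Epcam* had at most 2 counts. The summed normalized count of the 4 ran from 4583 to 5360.5 in CHREBP and from 3853 to 4704 in BOTH. No marker passed the test, and in bulk libraries fewer cells of a type and less RNA per cell cannot be told apart. The part of these markers in the results was not tested.

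Both targeted transcripts were few in these libraries, with 12 to 51 reads per library. Normalized counts (reads divided by the DESeq2 size factor of the library) of *Arntl* (chr7:113207465-113314126, plus strand, mm10) were 33.6, 44.5, 29.4 and 35.9 in CHREBP and 16.8, 31.3, 25.7 and 18.4 in BOTH. The groups overlapped, the BOTH mean was 35.6% lower, and the log2 fold change was -0.63 (SE 0.29), with no *Padj* because the gene fell under the independent filter on mean count. An exact permutation test of the 8 values gave p = 0.0571. In BMAL1 against CON the log2 fold change was -0.78, so the size of the drop with and without *Chrebp* esiRNA differed by 0.15 (SE 0.40).

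*Mlxipl* (chr5:135089890-135138382, plus strand), which was targeted with 100 nM esiRNA in both groups, had normalized counts of 23.6, 33.2, 22.5 and 25.8 in CHREBP and 14.6, 20.6, 22.2 and 11.6 in BOTH. Every BOTH library lay under every CHREBP library, the mean was 34.2% lower, and the exact permutation p was 0.0286, the smallest that 4 against 4 can give. DESeq2 gave a log2 fold change of -0.61 (SE 0.31), again with no *Padj*. Neither targeted transcript was called, and the *Chrebp* transcript was at lower values in BOTH although its esiRNA was in both groups. In CHREBP over CON, *Mlxipl* had a log2 fold change of -0.46 (DESeq2 *Padj* = 0.593), with means of 26.2 and 36.1 normalized counts, and was not called. The study reports silencing of both transcripts from its transcriptome data and from qPCR.

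**Figure D1:**
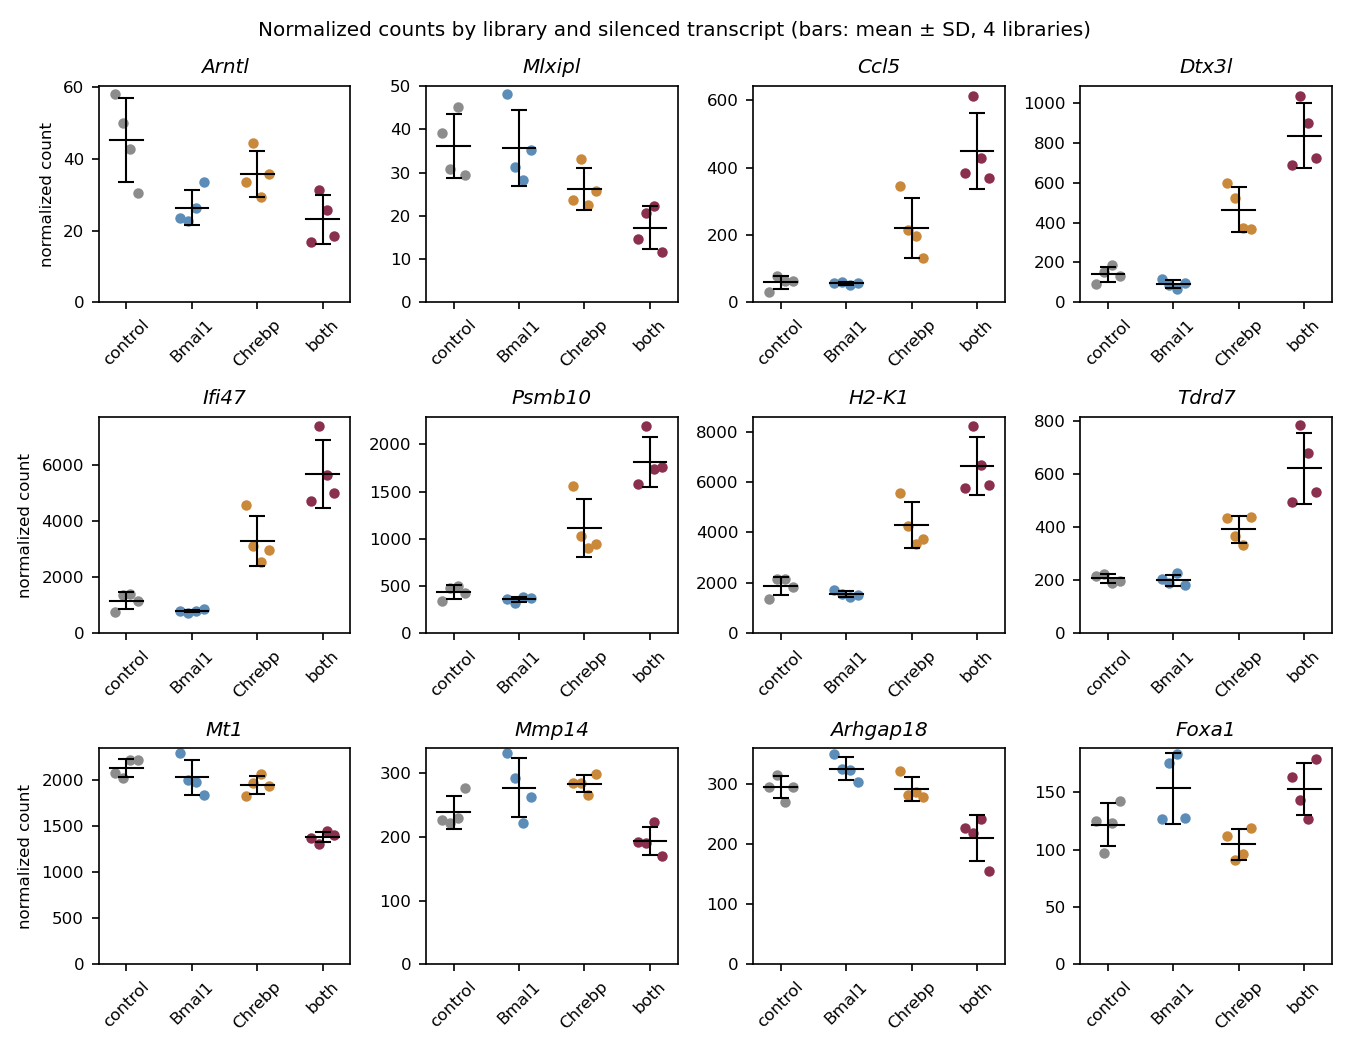
Normalized counts of 12 genes in the 16 esiRNA libraries, 1 panel per gene. The x axis gives the silenced transcript, the y axis starts at 0, points are libraries and bars are the mean ± SD of 4 libraries. For *Dtx3l*, *Ifi47* and *H2-K1* the BOTH libraries lie above the CHREBP libraries, and for *Mt1* they lie below, between 1306 and 1445.

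Across the transcriptome more genes were higher than lower. Of 13883 genes fitted, 9576 had a *Padj*, and 117 of these (1.22%) were higher in BOTH and 21 (0.219%) lower at *Padj* under 0.1. The changes were small. The median log2 fold change of the 117 was 0.41, only *Ccl5* and *Il18bp* reached a fold of 2, and the 21 lower genes had a median of -0.48. Over all 13883 genes the median was -0.0026. Of the 117 genes, 66 had no overlap between the groups and 51 overlapped. Among all fitted genes, 1.98% did not overlap in the higher direction and 1.48% in the lower.

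These counts leaned on single libraries. Without CHREBP replicate 1 the number of higher genes was 182, and without CHREBP replicates 2, 3 and 4 it was 55, 49 and 52. Without BOTH replicates 1, 2, 3 and 4 it was 125, 54, 84 and 158. Lower genes numbered 30, 10, 7 and 11 without CHREBP replicates 1 to 4, and 18, 18, 23 and 64 without BOTH replicates 1 to 4. The edgeR quasi-likelihood test called 48 genes higher and 5 lower, and DESeq2 on the 8 libraries alone called 75 and 5. A set of 27 higher and 4 lower genes was called with all libraries and in every other setting. These were 8 settings that left out 1 library and 9 others. Of the 27, 0 were in the interferon-related lists, which held 102 of 9576 genes with a *Padj* and 14 of the 117 higher genes. The lists were written from general knowledge, and whether genes outside them respond to interferon was not tested.

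The genes with the largest rises were led by interferon-inducible ones. The rule that named the largest rises and falls took only genes whose groups did not overlap. *Ccl5*, a chemokine that attracts T cells (chr11:83525778-83530518, minus strand), had normalized counts of 344, 214, 198 and 130.1 in CHREBP and 385, 613, 428 and 368 in BOTH. Its lowest BOTH library was close to its highest CHREBP library, replicate 1, and the mean rose from 221 ± 89.6 to 449 ± 113 (SD, n = 4), with a log2 fold change 1.02, SE 0.30, *Padj* = 0.0601. *Dtx3l*, an E3 ubiquitin ligase that works with PARP9 (chr16:35926511-35939151, minus strand), had 600.0, 522, 375 and 366 in CHREBP and 687, 1038, 898 and 723 in BOTH. It rose from 466 ± 115 to 837 ± 163 (SD, n = 4), with a log2 fold change 0.85, SE 0.23, *Padj* = 0.0425, and the lowest BOTH value was above the highest CHREBP value. *Ifi47*, an interferon-inducible GTPase (chr11:49076587-49096974, plus strand), had 4600.1, 3102, 2540.0 and 2980.2 in CHREBP and 4711, 7398, 5664 and 5010.3 in BOTH. It rose with a log2 fold change of 0.79 (SE 0.22, *Padj* = 0.0495), and the margin between BOTH replicate 1 and CHREBP replicate 1 was narrow. Its gene model shares its strand with part of *Olfr56*, so reads in the overlap may be assigned to either. With 1 library left out (8 fits), the call was kept for *Ccl5* in 3, *Dtx3l* in 4 and *Ifi47* in 3. Without BOTH replicate 2 none of these 3 passed.

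Antigen presentation genes moved in the same direction. *Psmb10*, a catalytic subunit of the immunoproteasome (chr8:105935735-105938444, minus strand), had 1562, 1035, 906 and 942 in CHREBP and 1579, 2195, 1736 and 1758 in BOTH (log2 fold change 0.71, SE 0.18, *Padj* = 0.019). *H2-K1*, a heavy chain of MHC class I (chr17:33996017-34000347, minus strand), had 5585, 4272, 3546 and 3740.3 in CHREBP and 5759.7, 8238, 6659 and 5894 in BOTH (log2 fold change 0.63, SE 0.17, *Padj* = 0.041). Both were free of overlap, as the rule for naming large rises required, by a small margin at CHREBP replicate 1. *B2m*, the light chain of the same complex (chr2:122147686-122153083, plus strand), was among the most abundant transcripts, with 29496, 22927, 22782 and 23667 in CHREBP and 26128, 37724, 33335 and 33478 in BOTH. Its CHREBP replicate 1 lay inside the BOTH range, and it rose by a log2 fold change of 0.40 (SE 0.10, *Padj* = 0.0217). *H2-D1*, a heavy chain outside the rule for naming genes, and *Psme2*, a subunit of the proteasome activator, rose by 0.43 and 0.38 on the log2 scale (*Padj* = 0.0552 and 0.0284). Class I heavy chains are near-identical in places, so the split of reads among *H2* genes is uncertain. The call held for *Psmb10* in 7, *H2-K1* in 3, *B2m* in 3, *H2-D1* in 2 and *Psme2* in 5 of the 8 fits that left out 1 library. Without BOTH replicate 2 none of these 5 passed.

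The other large rises were not all in a list. *Tdrd7*, a Tudor domain protein with a known antiviral role (chr4:45965334-46034761, plus strand), had 432, 365, 333 and 437 in CHREBP and 493, 783, 677 and 532 in BOTH (log2 fold change 0.67, SE 0.13, *Padj* = 7.40e-04). Here all 4 BOTH libraries were above the CHREBP range, and the gene was called in every setting. *Rbm43*, an RNA-binding protein (chr2:51924448-51935163, minus strand), had 268, 174, 206 and 199.6 in CHREBP and 308, 369.8, 331 and 296 in BOTH (log2 fold change 0.63, SE 0.13, *Padj* = 0.00195). *Atp10a*, a phospholipid flippase, had 168, 150.1, 129.5 and 114 in CHREBP and 172, 340.2, 223 and 197 in BOTH (log2 fold change 0.73, SE 0.20, *Padj* = 0.0284), and BOTH replicate 2 was far above the other BOTH libraries. *Mon1a*, part of the exchange factor that activates RAB7, had 46.0, 56.7, 76.9 and 56.1 in CHREBP and 104, 84.2, 77.2 and 111 in BOTH (log2 fold change 0.67, SE 0.20, *Padj* = 0.0649), and its groups nearly met at replicate 3 of each. *Gm7160*, a long intergenic non-coding RNA (chr1:105979350-105990282, minus strand), had 70.7, 42.7, 41.5 and 34.8 in CHREBP and 87.6, 78.8, 94.7 and 74.8 in BOTH (log2 fold change 0.83, SE 0.23, *Padj* = 0.0503). With 1 library left out (8 fits), the call was kept for *Tdrd7* in 8, *Rbm43* in 7, *Atp10a* in 3, *Mon1a* in 1 and *Gm7160* in 1.

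Beside these genes, 11 interferon-related lists with 140 members in all were followed, from sensors to effectors. The lists were chosen with earlier results of these data known. Their shares therefore describe the members and do not test for a program. Of the members, 129 were fitted and 102 had a *Padj*. Of these 102, 14 were higher and 0 lower, against the 1.22% and 0.219% of all genes. The log2 fold change was positive for 117 of the 129 (90.7%, against 49.4% of all genes) with a median of 0.75. An unadjusted p under 0.05 was found for 52 positive members and 1 negative one, against 602 and 426 of all 13883 genes, and 13 of the 129 members did not overlap in the higher direction, against 1.98% of all genes. The number called was 32 without CHREBP replicate 1, and 4, 1 and 3 without CHREBP replicates 2, 3 and 4. It was 15, 0, 6 and 12 without BOTH replicates 1, 2, 3 and 4. In fits added after seeing the data, it was 28 without CON replicate 1 and 12 to 14 without another CON or BMAL1 library. edgeR called 9 members. DESeq2 on the 8 libraries alone called 20 of 88 with a *Padj*, with 4 antiviral PARPs, 3 immunity-related GTPases and 2 members of the ISG15 system among them, and there *Ifi47* did not pass (*Padj* = 0.11). In all settings tried 0 members were lower, and in those other than the added fits 86.7% to 93.0% were positive, with medians from 0.53 to 1.00.

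By library, the mean over the 129 members of log2(normalized count + 1) was 8.60, 8.01, 7.81 and 7.75 in CHREBP and 8.42, 9.17, 8.80 and 8.39 in BOTH. CHREBP replicate 1 lay inside the BOTH range, and the other CHREBP libraries lay under all 4 BOTH libraries. In CON the levels were 5.14, 6.63, 6.67 and 6.04, and in BMAL1 5.42, 5.25, 5.30 and 5.57. Both groups with *Chrebp* esiRNA, which were also the groups of library column 3, were thus above both groups without it.

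**Figure D2:**
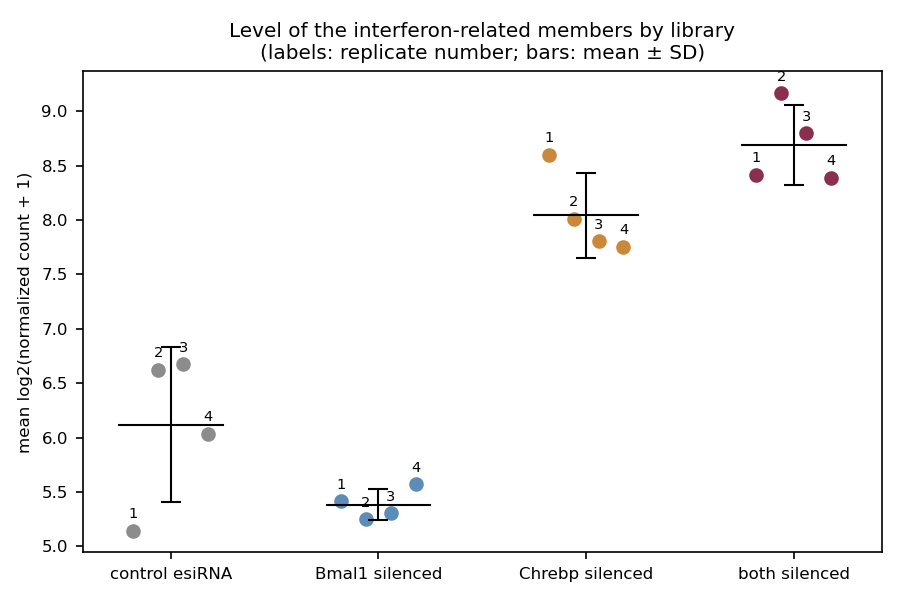
Mean log2(normalized count + 1) of the 129 fitted interferon-related members, 1 point per library with its replicate number, and mean ± SD of 4 libraries as bars. The BOTH libraries lie between 8.39 and 9.17, and CHREBP replicate 1, at 8.60, is the 1 CHREBP library among them.

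At the head of the pathway, *Ifnb1*, the gene for interferon beta (chr4:88522025-88522774, minus strand), had normalized counts of 8.97, 4.36, 1.73 and 2.24 in CHREBP and 10.1, 33.1, 14.0 and 18.4 in BOTH. These are few reads, at most 8 in CHREBP and 37 in BOTH. The groups did not overlap, and the fit gave a log2 fold change of 2.16 (SE 0.69) with no *Padj*. Of the 7 fitted interferons and receptors, with *Ifnb1* among them, 3 were positive, with a median of -0.07 and a lowest value of -0.32. An unadjusted p under 0.05 was found for 1 positive and 1 negative member, and 0 of the 5 with a *Padj* were called. *Ifngr1*, the receptor with the most reads, was at 0.07 (*Padj* = 0.838). Among 15 sensors and their adapters, 13 were positive and *Myd88*, the adapter of Toll-like receptors, was called (382, 273, 186 and 226 in CHREBP and 376, 511, 360.1 and 424 in BOTH; log2 fold change 0.65, SE 0.18, *Padj* = 0.0383). CHREBP replicate 1 of *Myd88* exceeded 2 of the BOTH libraries.

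Of 14 JAK, STAT and IRF members, 10 were positive, and *Irf1*, a transcription factor of the interferon response, was called with 1967, 1392, 1318 and 1426 in CHREBP and 1904, 2481, 2178 and 1755 in BOTH (log2 fold change 0.45, SE 0.13, *Padj* = 0.0496). The effector genes had larger but more scattered changes. All 29 IFIT, MX and other effectors were positive with a median of 0.86 on the log2 scale, and 3 were called. They were *Slfn2*, a Schlafen family member (log2 fold change 0.53, *Padj* = 0.0225), *Trim21*, an antibody receptor of the cytosol and ubiquitin ligase (0.90, *Padj* = 0.0562), and *Samhd1*, which degrades deoxynucleotides (0.82, *Padj* = 0.079). All 5 members of the ISG15 system were positive with a median of 0.89, and 0 were called. *Usp18*, the protease that removes ISG15, had 3968, 2481, 2076 and 2319 in CHREBP and 3958, 7443, 5279 and 4707 in BOTH (log2 fold change 0.98, SE 0.56, *Padj* = 0.655). In the fit of the 8 libraries alone it passed, with a log2 fold change of 0.98 and *Padj* = 0.0968.

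The 9 members of the OAS family and RNase L had a median of 0.93, 8 were positive, and 0 were called. *Oasl1* had 1293, 694, 586 and 593 in CHREBP and 997, 2149, 1588 and 1279 in BOTH (log2 fold change 0.93, SE 0.41, *Padj* = 0.434), with CHREBP replicate 1 above BOTH replicates 1 and 4. *Oas1c*, a member with few reads, did not overlap at 51.6, 37.5, 27.6 and 37.0 in CHREBP and 74.1, 77.9, 85.4 and 65.0 in BOTH, and its fitted log2 change was 0.98 (SE 0.27), without a *Padj*. All 9 guanylate-binding proteins were positive with a median of 0.80 and 0 called. The largest of them by reads, *Gbp2*, had 1186, 794, 659.8 and 493 in CHREBP and 1043, 2008, 1345 and 960.1 in BOTH (log2 fold change 0.77, *Padj* = 0.662). All 7 immunity-related GTPases were positive with a median of 0.79, and *Ifi47* was the 1 called. All 7 antiviral PARPs were positive with a median of 0.68, and *Dtx3l* was the 1 called. MHC class I presentation had the most calls by number, 5 of 20 fitted, with 19 positive and a median of 0.66. By share of members with a *Padj*, 33.3% were called there and 40% among the interferon-induced cytokines. In the fit of the 8 libraries alone it had 4 calls, as had the IFIT, MX and other effectors and the antiviral PARPs. Of the 7 interferon-induced cytokines all were positive, and *Ccl5* and *Il18bp*, which binds interleukin 18 (104, 61.1, 75.1 and 52.7 in CHREBP and 101, 219, 129.8 and 139.8 in BOTH; log2 fold change 1.02, SE 0.25, *Padj* = 0.0151), were called. The call held for *Myd88* in 4, *Irf1* in 3, *Slfn2* in 4, *Trim21* in 1, *Samhd1* in 3 and *Il18bp* in 2 of the 8 fits that left out 1 library.

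**Figure D3:**
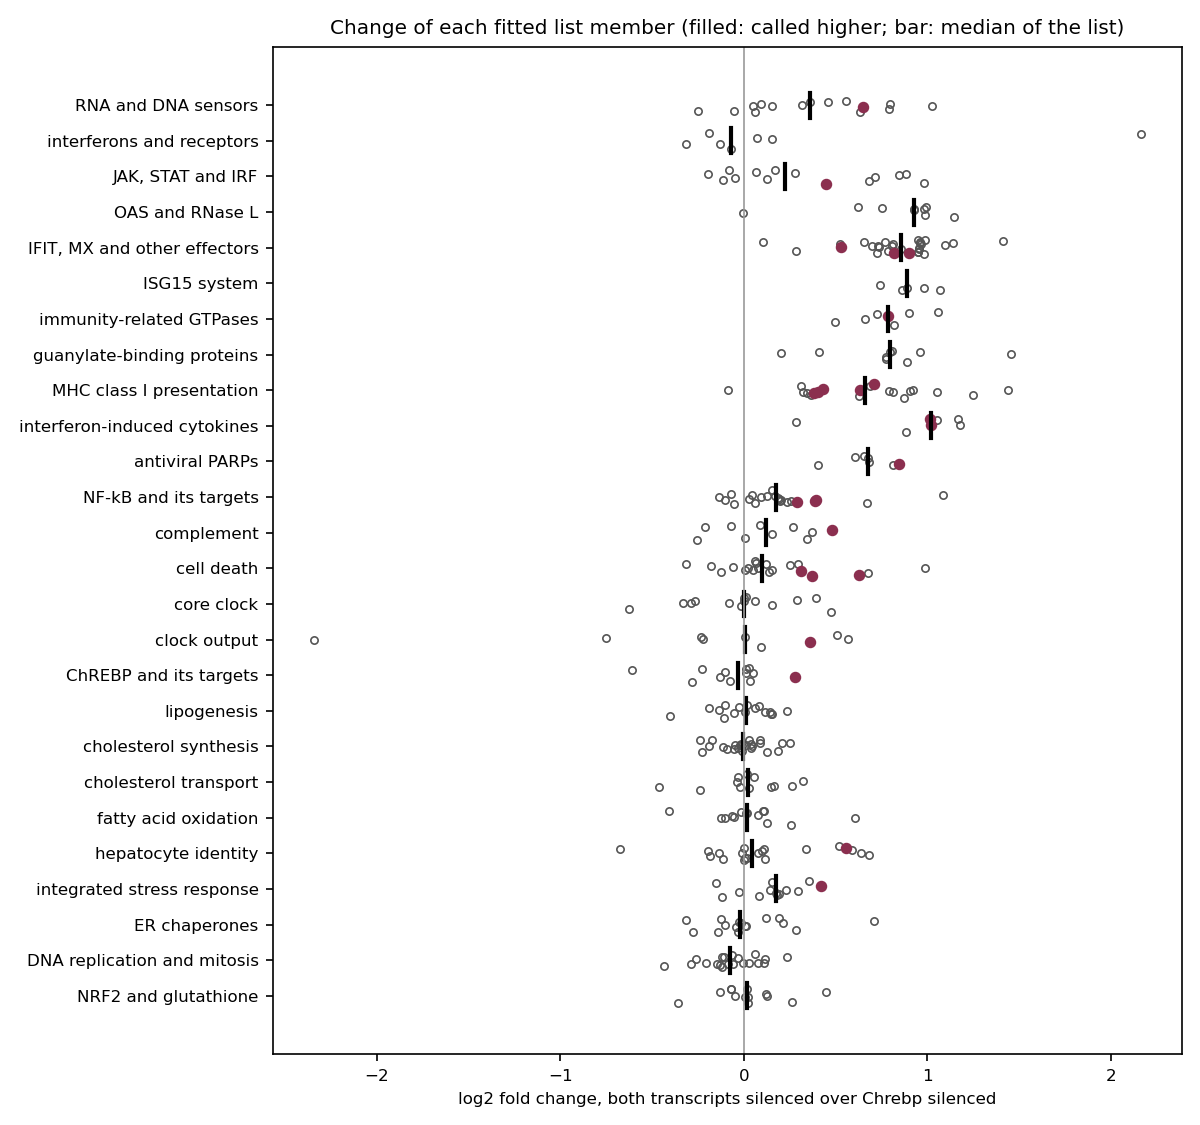
Log2 fold change of BOTH over CHREBP (x axis) for every fitted member of 26 lists (rows). Filled points are genes called higher, open points are not called, and black bars are list medians. The interferon-related lists are the upper 11 rows, with medians up to 1.02, and the metabolic lists have medians near 0.

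The promoters of the called genes were searched for the sequences that interferon-responsive factors and BMAL1 are known to bind. The 250 bases before the RefSeq start were read on both strands for the ISRE core GAAANNGAAA, where N is any base. It was found in 10 of the 98 called-higher genes with a promoter in the table (10.2%) and 0 of 17 called-lower genes, against 323 of 10156 fitted genes (3.18%) and 936 of all 27025 genes of the table (3.46%). The E-box CACGTG was found for 9 of the 98 (9.18%) and 2 of the 17 (11.8%), against 9.94% of the fitted genes and 6.86% of all. Among the interferon-related members the ISRE core was found for 38 of 101 (37.6%) and the E-box for 5. Of the fitted genes 73.2% and of the interferon-related members 78.3% had a promoter in the table, both under the 80% needed for such a check, so the check against fitted genes and that of the list are void and their shares are given as values only. In the following windows of 3 called genes that hold the core, capitals mark the match, which in *Rbm43* is a pair of overlapping matches on the other strand. A match is a description of the letters only (GRCm38.p6, RefSeq).
Rbm43 (chr2:51935164-51935413, minus strand): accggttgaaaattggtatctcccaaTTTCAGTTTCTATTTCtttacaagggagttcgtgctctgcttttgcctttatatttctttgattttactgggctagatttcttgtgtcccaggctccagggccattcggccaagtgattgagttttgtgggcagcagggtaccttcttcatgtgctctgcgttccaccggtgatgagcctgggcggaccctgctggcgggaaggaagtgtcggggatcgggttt
Myd88 (chr9:119340019-119340268, minus strand): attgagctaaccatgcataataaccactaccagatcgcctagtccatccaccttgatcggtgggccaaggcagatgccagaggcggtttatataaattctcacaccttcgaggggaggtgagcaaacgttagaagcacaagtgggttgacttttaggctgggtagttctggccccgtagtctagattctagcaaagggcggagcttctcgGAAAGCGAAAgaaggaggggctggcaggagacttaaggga
B2m (chr2:122147437-122147686, plus strand): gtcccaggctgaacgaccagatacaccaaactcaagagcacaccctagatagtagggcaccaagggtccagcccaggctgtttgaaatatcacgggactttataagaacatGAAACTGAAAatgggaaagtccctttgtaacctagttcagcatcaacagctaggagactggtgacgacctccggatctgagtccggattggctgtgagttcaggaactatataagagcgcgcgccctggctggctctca
The matches begin 224 and 218 bases before the start in *Rbm43*, 40 bases in *Myd88* and 139 bases in *B2m*. Of the 2 promoters listed for *Rbm43*, 1 holds the core and is the one printed. The core was also found before *Tdrd7*, whose window shares more than 30 bases with annotated exons and is not printed (23 bases in *Myd88* and 1 in *B2m*), before *Foxa1*, and before *Lgals9*, *Tcirg1*, *Rbck1*, *Serpinb9* and *Tmem140*, which fall outside the rule for naming genes.

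Outside the interferon-related lists, some inflammatory and cell death genes rose as well. Of 22 fitted NF-kB genes, 18 were positive (median 0.18), and 3 of the 19 with a *Padj* were called higher, where 49.4% of all genes were positive and 1.22% were called higher. *Ccl2*, a chemokine that attracts monocytes (chr11:82035571-82037453, plus strand), had 8004, 6895, 6619 and 7048 in CHREBP and 8822, 10159, 8828 and 9509 in BOTH (log2 fold change 0.39, SE 0.08, *Padj* = 0.00204). Its groups did not overlap, and it was called in every setting. *Ccl7*, its neighbour on the chromosome and of like function, had 449, 403, 332 and 381 in CHREBP and 520.0, 579, 481 and 468 in BOTH (log2 fold change 0.39, SE 0.11, *Padj* = 0.0625). *Tnfaip3*, an inhibitor of NF-kB signalling, had 831, 851, 831 and 843 in CHREBP and 999.6, 1156, 947 and 990.2 in BOTH (log2 fold change 0.29, SE 0.09, *Padj* = 0.0759), and its CHREBP libraries lay close together. *C4b* of the complement system rose by 0.48 (*Padj* = 0.0222), with 7 of 10 fitted members of that list positive. Of 20 fitted cell death genes 16 were positive, and 3 of the 17 with a *Padj* were called, against the same shares of all genes. These were *Mlkl*, the executor of necroptosis (0.63, *Padj* = 0.0203), *Gsdmd*, which forms the pores of pyroptosis (0.37, *Padj* = 0.0391), and *Bid*, a BH3-only activator of apoptosis (0.31, *Padj* = 0.0496). For *C4b* and these 3 genes the groups overlapped. With 1 library left out (8 fits), the call was kept for *Ccl2* in 8, *Ccl7* in 3, *Tnfaip3* in 3, *C4b* in 5, *Mlkl* in 5, *Gsdmd* in 4 and *Bid* in 3.

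Most of the 117 higher genes, 92, were in none of the lists. Several of these, named after their values were seen, were among the calls kept in every setting. *Tmem184b*, a transmembrane protein, rose by 0.57 on the log2 scale (*Padj* = 1.06e-04), with 1299.8, 1305, 1119 and 1339 in CHREBP and 1567, 2388, 1677 and 1887 in BOTH. *Csf1*, the growth factor of macrophages, rose by 0.44 (*Padj* = 1.78e-04), with 1502, 1279.8, 1299.8 and 1299 in CHREBP and 1672, 2013, 1805 and 1786 in BOTH. *Mov10*, an RNA helicase, rose by 0.45 (*Padj* = 0.00127), and *Gadd45g*, a stress-inducible gene, by 0.53 (*Padj* = 0.00155). In these 4 genes no BOTH library overlapped a CHREBP library.

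The falls were fewer, and 0 of the 21 lower genes were in any list. Of the 9576 genes with a *Padj*, 102 were interferon-related members and 196 members of other lists, so this count says little. *Mt1*, a metallothionein that binds zinc and copper (chr8:94179082-94180327, plus strand), had the lowest *Padj* of all genes, with 1817, 1961, 2061 and 1934 in CHREBP and 1366, 1306, 1445 and 1395 in BOTH. It fell from 1943 ± 100.3 to 1378 ± 58.0 (SD, n = 4), with a log2 fold change -0.50, SE 0.07, *Padj* = 2.18e-08, a gap several times the spread within either group, and it was called in every setting. Its neighbour *Mt2*, outside the rule for naming genes and picked after its values were seen, also fell (log2 fold change -0.65, SE 0.19, *Padj* = 0.066), though its groups overlapped. *Mmp14*, a membrane-bound matrix metalloproteinase (chr14:54431612-54445364, plus strand), had 285, 284, 266 and 299 in CHREBP and 192, 189.8, 223 and 169.9 in BOTH (log2 fold change -0.55, SE 0.13, *Padj* = 0.00424). *Arhgap18* had 323, 283, 287 and 279 in CHREBP and 228, 219, 242 and 155 in BOTH (log2 fold change -0.48, SE 0.12, *Padj* = 0.0139). *Nrep*, a neuronal regeneration protein, had 396, 366, 395 and 452 in CHREBP and 319, 252, 286 and 334 in BOTH (log2 fold change -0.43, SE 0.10, *Padj* = 0.00431). With *Mt1*, these 3 genes make up the 4 lower genes called in every setting.

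Other falls were not called in every setting. *Epha4*, a receptor of ephrins, fell by 0.46 on the log2 scale (*Padj* = 0.0184), *Mindy1*, a deubiquitinase, by 0.45 (*Padj* = 0.0222) and *Krba1*, a KRAB domain protein, by 0.64 (*Padj* = 0.0496). *Cramp1l*, *Smim15* and *Ap2a1*, a subunit of the clathrin adaptor AP-2, had log2 fold changes of -0.45, -0.35 and -0.33 (*Padj* = 0.0781, 0.0509 and 0.0509). None of these 6 overlapped between the groups, as the rule for naming large falls required. The call held for *Epha4* in 7, *Mindy1* in 8, *Krba1* in 2, *Cramp1l* in 3, *Smim15* in 5 and *Ap2a1* in 4 of the 8 fits that left out 1 library. In *Mindy1* the CHREBP replicate 1 stood above the other CHREBP libraries, and BOTH ran from 589 to 1030.2.

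Clock and metabolic lists held 0 or 1 call each, beside 1.22% of all genes called higher and 0.219% lower, and in lists of this size such counts say little of the members. Of 14 fitted core clock genes (10 with a *Padj*) 0 were called, with 7 positive and a median of -0.00041. *Csnk1e*, a kinase of PER proteins and the most abundant member, was at 0.00 (SE 0.06, *Padj* = 0.998). Among 9 fitted clock output genes (6 with a *Padj*) *Nfil3*, a repressor in the output of the clock, was called, with 294, 280.1, 276 and 260.1 in CHREBP and 358, 352, 331 and 384 in BOTH (log2 fold change 0.36, SE 0.10, *Padj* = 0.0552). No gene was called among 16 fitted genes of lipogenesis, 24 of cholesterol synthesis, 12 of cholesterol transport and 14 of fatty acid oxidation, and their medians lay between -0.0058 and 0.023. In the replication list (20 fitted), the NRF2 list (13) and the ER chaperone list (16) no gene was called either.

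The *Chrebp* target list (12 fitted, 10 with a *Padj*) had 6 positive members and 1 call. *Txnip*, a thioredoxin inhibitor and glucose sensor gene, had 1615, 1467, 1995 and 1667 in CHREBP and 1948, 2101, 1923 and 2197 in BOTH (log2 fold change 0.28, SE 0.08, *Padj* = 0.0853), where CHREBP replicate 3 lay inside the BOTH range. *Pklr*, the liver pyruvate kinase, was at -0.13 (*Padj* = 0.867) and *Klf10*, a zinc finger repressor, at -0.10 (*Padj* = 0.887). *Foxa1*, a pioneer factor of hepatocyte identity, had 112, 90.7, 95.9 and 119 in CHREBP and 163, 143, 126 and 179 in BOTH (log2 fold change 0.56, SE 0.17, *Padj* = 0.0726), with 1 of 12 tested members of its list called. *Ddit3*, the stress factor CHOP, was called within the integrated stress response (log2 fold change 0.42, SE 0.13, *Padj* = 0.0931), a list with 10 of 13 fitted members positive. With 1 library left out (8 fits), the call was kept for *Txnip* in 2, *Foxa1* in 3, *Ddit3* in 1 and *Nfil3* in 4.

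The cholesterol exporters and the growth factor gene named by the study from these libraries were not called here. *Abca8b* had 223, 246, 234 and 262 in CHREBP and 211, 205, 228 and 177 in BOTH, a log2 fold change of -0.24 (SE 0.11, *Padj* = 0.5), against 0.35 in BMAL1 over CON. *Abca1* was at -0.46 (SE 0.29) here and 0.47 there. *Igf1* was at -0.25 (SE 0.35) and 0.63, and *Lbh* at -0.16 (SE 0.20) and 0.38. *Abca1* and *Igf1* had under 50 normalized counts and no *Padj*. The difference between the 2 contrasts passed the test for *Abca8b*, at -0.58 (SE 0.16, *Padj* = 0.0222).

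The contrasts with and without *Chrebp* esiRNA were compared by the interaction, the log2 fold change of BOTH over CHREBP minus that of BMAL1 over CON. The contrasts share no library, and the total esiRNA dose changed in opposite directions in them. Only CON held the *Egfp* esiRNA. The interaction thus holds the change of dose and the loss of the *Egfp* esiRNA as well as the *Bmal1* esiRNA. Of 9307 genes with a *Padj*, 167 (1.79%) had a positive interaction and 37 (0.398%) a negative one. In BMAL1 over CON alone, 23 of 8500 genes were higher (0.271%) and 45 lower (0.529%). Of the 117 genes higher in BOTH, 95 had a negative log2 fold change in BMAL1 over CON, where 51.1% of all genes were negative, and 2 were called lower there. edgeR gave 113 positive and 9 negative interactions. Without CHREBP replicates 1 to 4 the positive ones numbered 240, 108, 105 and 106 and the negative ones 41, 21, 16 and 17. Without BOTH replicates 1 to 4 they numbered 189, 130, 133 and 200, and 27, 33, 42 and 91. Leaving out a CON or BMAL1 library gave 184, 96, 88 and 152 positive and 29, 16, 16 and 29 negative ones without CON replicates 1 to 4, and 142, 109, 141 and 139 positive and 22, 13, 25 and 20 negative ones without BMAL1 replicates 1 to 4. The calls in BMAL1 over CON then ran from 4 to 22 higher and from 11 to 85 lower, with 85 without CON replicate 1 and 11 without CON replicate 2.

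Most interferon-related members lay on opposite sides of zero in the contrasts. Their median log2 fold change was 0.75 in BOTH over CHREBP and -0.68 in BMAL1 over CON, and 103 of 129 (79.8%) were positive in the first and negative in the second, against 26.3% of all genes. CON replicate 1 stood apart, with a mean level of 5.14 that lay under all 4 BMAL1 libraries (5.25 to 5.57), while the other CON libraries were at 6.04 to 6.67. The median interaction was 1.47. Of the 100 members with an interaction *Padj*, 60 passed with a positive interaction and 1 with a negative one, against 1.79% and 0.398% of all genes. Without CON replicates 1, 2, 3 and 4 the positive calls among the members were 79, 31, 29 and 58, and without BMAL1 replicates 1 to 4 they were 49, 40, 48 and 53. The median of the members in BMAL1 over CON ran from -0.89 without CON replicate 1 to -0.46 without CON replicate 3. *Usp18* had the largest interaction among the named genes that passed, 3.77 (SE 0.80, *Padj* = 0.00186), and was -2.79 in BMAL1 over CON. It had 35.5, 588, 570.5 and 291 normalized counts in CON and 49.6, 48.5, 51.5 and 65.0 in BMAL1, so that CON replicate 1 lay under every BMAL1 library. Its interaction passed in all 8 fits that left out a CON or BMAL1 library, at 3.46 to 4.15. Of the 29 named genes with a called interaction, 10 lost it in some of these fits, with the call kept in 2 of 8 for *Myd88* and *Samhd1*, 3 for *Tnfaip3*, 4 for *Irf1* and *C4b*, 5 for *Bid*, *Trim21* and *Il18bp*, and 6 for *Gbp2* and *H2-K1*. *Dtx3l* had an interaction of 1.47 (SE 0.34, *Padj* = 0.00727) and was -0.62 in BMAL1 over CON. *Ccl5* did not pass the test, at 1.10 (SE 0.44, *Padj* = 0.28). In BMAL1 over CON the total esiRNA dose fell from 200 to 100 nM, and in BOTH over CHREBP it rose from 100 to 200 nM, so the higher mean interferon-related level was in the 200 nM group of each. Between CHREBP at 100 nM and CON at 200 nM the order was the other way, with 7.75 to 8.60 in CHREBP and 5.14 to 6.67 in CON for the mean log2(normalized count + 1). The part of dose was not tested. Dose, library row and *Bmal1* esiRNA cannot be told apart in either, nor, in BMAL1 over CON, the loss of the *Egfp* esiRNA.

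Of the 21 lower genes, 8 passed the interaction test with a negative value and 13 did not pass, and both tests hold the BOTH and CHREBP libraries. For *Mt1* the log2 fold change in BMAL1 over CON was -0.07 and the interaction -0.42 (SE 0.10, *Padj* = 0.00745). For *Mmp14* these were 0.21 and -0.76 (SE 0.18, *Padj* = 0.00602), for *Nrep* 0.22 and -0.65 (SE 0.14, *Padj* = 0.00137), and for *Arhgap18* 0.14 and -0.62 (SE 0.16, *Padj* = 0.0204). *Epha4*, *Mindy1*, *Krba1*, *Cramp1l*, *Smim15* and *Ap2a1* did not pass, with interactions of -0.48, -0.42, -0.45, -0.39, -0.22 and -0.29 on the log2 scale and *Padj* from 0.129 to 0.722. *Foxa1* was positive in both contrasts (0.35 in BMAL1 over CON), with an interaction of 0.21 (SE 0.23, *Padj* = 0.885). *Txnip* was at 0.12 there, with 0.15 (SE 0.12, *Padj* = 0.812).

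**Figure D4:**
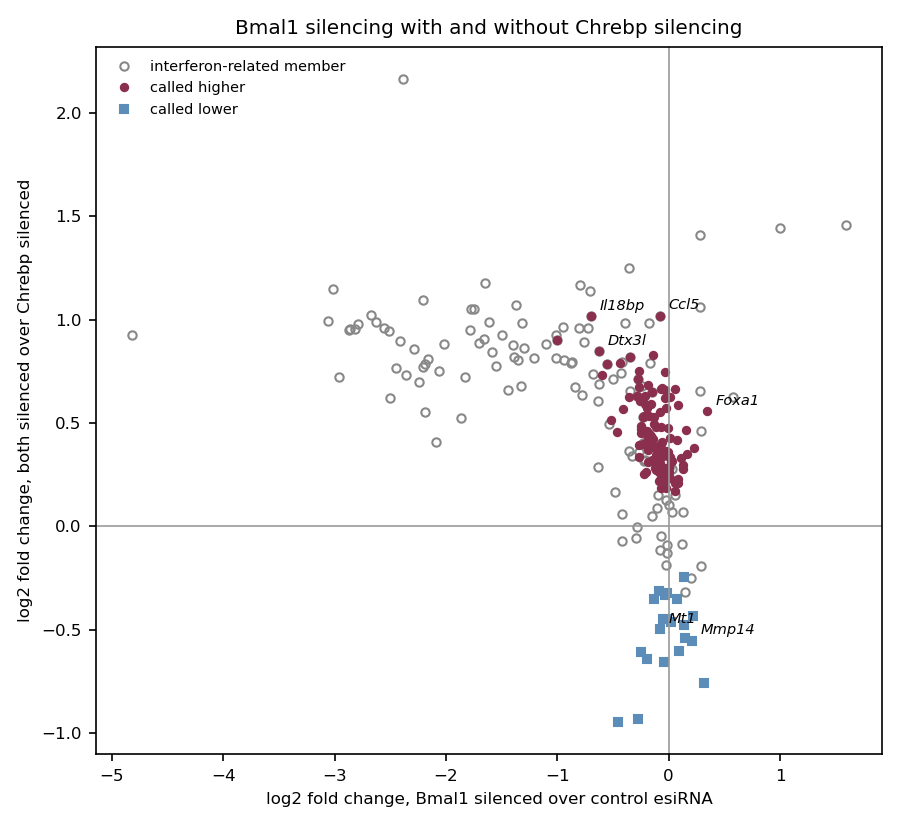
Log2 fold change of BMAL1 over CON (x axis) against that of BOTH over CHREBP (y axis). Open circles are the 129 fitted interferon-related members, filled circles the 117 genes higher and squares the 21 genes lower in BOTH. Of the interferon-related members, 103 lie above 0 on the y axis and below 0 on the x axis.

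CHREBP over CON, which compares 100 nM of *Chrebp* esiRNA with 200 nM of the control esiRNA, is set beside these values for 4 of the genes. Both contrasts hold the CHREBP libraries, so a high CHREBP value raises one and lowers the other. *Dtx3l* was at 1.73 in CHREBP over CON and 0.85 in BOTH over CHREBP, *B2m* at 0.74 and 0.40, *Ccl2* at 0.18 and 0.39, and *Mt1* at -0.13 and -0.50. The column of the libraries and the *Chrebp* esiRNA cannot be told apart in the first of these.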

How the data were processed

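The authors sequenced BRB-seq libraries (3′ ends of mRNA, barcoded and pooled), aligned the reads with STAR to mm10 and deposited raw whole-number counts per gene and library, with HTSeq and featureCounts named in the submitters' processing notes. Versions, strand use and the handling of molecular identifiers are not given in the sources used here. The table held 55487 genes, of which 21543 had a count, and 5 summary lines, which were left out (reads not aligned and reads in no feature made up 24.9% to 26.7% and 5.11% to 6.47% of a library among the 8). All columns were mapped to samples by their labels. Replicate pairs within the 2 groups differed by more than sampling noise (chi-square per degree of freedom 3.70 to 23.1 over 12 pairs), and each library was counted as 1 replicate.

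The 16 esiRNA libraries were fitted together with DESeq2 1.42.0 (R 4.3.3) over the 13883 genes whose counts summed to 25 or more, by Wald tests with Benjamini-Hochberg adjustment (*Padj* under 0.1). An adjusted p that the independent filter withheld, for 4307 genes, stayed missing. Alternatives were edgeR 4.0.16, other library sets, size factors, filters and thresholds, a replicate block, each of the 8 libraries left out and, added after seeing the data, each CON and BMAL1 library left out. The code was checked on simulated counts. The genes named were the 2 targets, the 10 largest rises and falls among called genes (groups not overlapping, 50 or more normalized counts on average), up to 3 called genes of each list by *Padj* (with none called, the most abundant member and that with the lowest p), and genes the study named. A gene that this rule names is not reported here. The gene lists were written from general knowledge. Members and lists were chosen with earlier results of these data known. Coordinates are from GENCODE M21 (GRCm38, the build mm10), which held 55141 of the gene identifiers, and promoter sequences from RefSeq (GRCm38.p6).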

Additional observations from a re-analysis of the deposited data

Results flagged for a closer look

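A library stood far from the other 3 of its group, by Dixon's criterion at the 95% level, in 6 of 146 groups examined, and chance alone gives about 1 in 20. *Mindy1* in CHREBP replicate 1 was at 1289 normalized counts, with the other CHREBP libraries between 1079.7 and 1109. *Irf1* in CHREBP replicate 1 was at 1967 normalized counts, with the other CHREBP libraries between 1318 and 1426. *Oasl1* in CHREBP replicate 1 was at 1293 normalized counts, with the other CHREBP libraries between 586 and 694. *Isg15* in CHREBP replicate 1 was at 67.3 normalized counts, with the other CHREBP libraries between 24.2 and 25.8. *B2m* in CHREBP replicate 1 was at 29496 normalized counts, with the other CHREBP libraries between 22782 and 23667. *Npc2* in CHREBP replicate 2 was at 3586 normalized counts, with the other CHREBP libraries between 4298 and 4414. For *Irf1*, *Oasl1*, *Isg15* and *B2m*, all interferon-related, the far library was CHREBP replicate 1.

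The log2 fold changes of BOTH over CHREBP and of BMAL1 over CON, in which total dose changed in opposite directions, differed by the interaction test in DESeq2 (*Padj* under 0.1), for 29 of the 70 named genes, beside 1.79% of all genes with a positive and 0.398% with a negative interaction. Most of the 70 were named for their change in BOTH over CHREBP, which is part of the interaction, so nothing is read from their share. On the log2 scale, 24 interactions were positive. The largest were 3.77 for *Usp18*, 2.43 for *Oasl1*, 2.32 for *Gbp2*, 1.90 for *Trim21*, 1.71 for *Il18bp*, 1.47 for *Dtx3l*, 1.34 for *Ifi47* and 1.33 for *Atp10a*. Next came 1.17 for *Samhd1*, 0.99 for *Psmb10*, 0.99 for *Mlkl*, 0.91 for *H2-K1*, 0.80 for *Myd88*, 0.76 for *Slfn2*, 0.72 for *Tdrd7* and 0.66 for *Ccl7*. The smallest were 0.62 for *Irf1*, 0.60 for *C4b*, 0.57 for *Psme2*, 0.57 for *B2m*, 0.56 for *Gsdmd*, 0.49 for *Ccl2*, 0.41 for *Bid* and 0.40 for *Tnfaip3*. The negative ones were -0.42 for *Mt1*, -0.58 for *Abca8b*, -0.62 for *Arhgap18*, -0.65 for *Nrep* and -0.76 for *Mmp14*.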

How the results depend on the processing

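In each setting tried 0 interferon-related members were called lower, and 86.7% to 93.0% were positive leaving aside the fits without a CON or BMAL1 library, where that share was not computed. The number of calls moved. Relative to 117 genes higher, 21 lower and 14 interferon-related members higher, edgeR gave 48, 5 and 9, and the 8 libraries alone gave 75, 5 and 20. A *Padj* under 0.05 left 10 lower genes. For the interaction, 37 genes were negative, and edgeR gave 9 and a *Padj* under 0.05 gave 16. Leaving out 1 of the 16 libraries (CON and BMAL1 libraries added after seeing the data) gave 49 to 182 genes higher, 7 to 64 lower, 0 to 32 interferon-related members higher, 88 to 240 positive and 13 to 91 negative interactions. The cause was not tested.

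Same-numbered CHREBP and BOTH libraries did not deviate together throughout (correlations of deviations from the group means -0.13, 0.32, -0.05 and 0.31 over 9391 genes, and only replicates 2 and 4 correlated best with their own number), so the numbers were not taken as pairs. With a replicate block, 90 genes were higher, 10 lower and 7 interferon-related members higher, with 119 positive and 28 negative interactions.

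Of the single genes, *Csnk1e*, near 0, turned negative with the 8 libraries alone (-0.0045), with TMM factors (-0.0031) and with the replicate block (-0.000383), and ran from -0.024 to 0.042 when 1 library was left out. *Canx* ran from -0.12 to 0.0057. Both targeted transcripts had 12 to 51 reads per library and no *Padj*.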
